A study of Mus musculus with 8 samples.

Results

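The embryonic globin transcripts Hbb-y and Hba-x were 3.25- and 2.30-fold less abundant, on average, in dorsal cortex libraries labelled ErbB4-/- than in ErbB4+/+ libraries. The sex pattern of the embryos nearly coincided with genotype. With Xist, a marker of that pattern, as a covariate, the fitted log2 fold change of Hbb-y was -0.77 (SE 0.63) against -1.72 without it. That of Hba-x was -0.84 (SE 0.48) against -1.23. The rarer Hbb-bh1 had a 1.60-fold lower mean on few reads, with a counting interval that includes no difference, while the 4 other red cell genes with enough reads to be fitted had log2 differences of 0.11 to 0.21, of which 3 were smaller than their SE. The genes described are 8 markers of red blood cells and their precursors. They are the embryonic globins Hbb-y, Hba-x and Hbb-bh1, the heme synthesis enzyme gene Alas2, the anion exchanger gene Slc4a1, the erythropoietin receptor gene Epor and the transcription factor genes Klf1 and Gata1. Their rows were found by symbol among the 23284 gene symbols of the count files, and all 8 were present. They were chosen because the embryonic globins were lower in the ErbB4-/- libraries, so the difference between the genotypes is described for them and not tested.

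RNA-seq was carried out on dorsal cortex of mouse embryos at E15.5, with 4 libraries labelled ErbB4+/+ (wild type) and 4 labelled ErbB4-/- (ErbB4 KO). The study asked which genes change in the developing cortex without the receptor tyrosine kinase ErbB4. The paper names the C57BL/6 strain for other mice, edited by CRISPR/Cas9, and not for the embryos sequenced. The ErbB4-/- mice are kept alive by a transgene that expresses ErbB4 in the heart under the α-MHC promoter, and whether the ErbB4+/+ mice carry it is not stated. The 2 lines were maintained as separate homozygous colonies. Meninges and ganglionic eminences were dissected away, and the sources used here do not describe removal of blood from the vessels.

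In mice, the first red blood cells are primitive cells made in the yolk sac, and they carry hemoglobin built from the embryonic beta-like chains εy (Hbb-y) and βh1 (Hbb-bh1) and the alpha-like chain ζ (Hba-x). Definitive red cells made later in the fetal liver carry adult chains from Hbb-b1, Hbb-b2, Hba-a1 and Hba-a2, so that the embryonic transcripts wane in the blood through midgestation. Alas2, Slc4a1, Epor, Klf1 and Gata1 are used by red cell precursors of both waves. In a bulk tissue library, fewer red cells and less transcript per red cell cannot be told apart.

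Between 28205703 and 48871480 reads were counted per library, with TMM normalization factors from 0.994 to 1.01, so that 1 CPM (counts scaled to a common library size) stands for about the same share of each library. Markers of the labelled tissue were present throughout, with 12 of 12 dorsal cortex genes tested and a summed level from 3878 to 4513 CPM per library. Erbb4 had 18.3 ± 6.81 CPM (SD, n = 4) in ErbB4+/+ and 22.4 ± 1.92 CPM (SD, n = 4) in ErbB4-/-, so the targeted gene was not lower in the libraries labelled ErbB4-/-. Counts summed over a gene do not show which exons were read. A pattern of Y-linked expression (Ddx3y from 76.4 to 80.9 CPM, Xist from 2.70 to 3.82 CPM) was seen in 5 libraries, which were ErbB4+/+ replicate 4 and all of ErbB4-/-. The other 3 libraries, all ErbB4+/+, had the opposite pattern, so the embryos' sex pattern and genotype cannot be told apart except through ErbB4+/+ replicate 4. ErbB4+/+ replicate 1 stood apart on the first principal component (-38.9, with all others at -6.07 or above), and its deviations from the other libraries decreased with transcript length (Spearman's rho = -0.58 across genes, which are not independent replicates). ErbB4-/- replicate 3 held choroid plexus transcripts (572 CPM of Ttr, against 0.571 to 8.76 CPM in the other libraries).

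The globin genes lie in 2 clusters of similar genes, so the sequences bear on which of them a read count can tell apart. The first 60 coding bases of each gene are shown for that reason, read from the mouse genome (NCBIM37, mm9) and written 5′ to 3′ on the coding strand. Capitals mark bases that differ from Hbb-y in the beta-like genes. Hbb-y was read from chr7:111001607-111001666, Hbb-bh1 from chr7:110991565-110991624 and the adult gene Hbb-b1 from chr7:110976330-110976389, all on the minus strand.
Hbb-y: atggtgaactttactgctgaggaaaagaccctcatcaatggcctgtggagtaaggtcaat
Hbb-bh1: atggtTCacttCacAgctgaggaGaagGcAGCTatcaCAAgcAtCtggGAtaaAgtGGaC
Hbb-b1: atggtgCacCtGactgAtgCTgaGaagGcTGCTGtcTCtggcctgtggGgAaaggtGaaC
The other adult gene, Hbb-b2, has the same 60 bases as Hbb-b1. For the alpha-like genes, capitals mark bases that differ from Hba-x. Hba-x was read from chr11:32176664-32176723 and the adult gene Hba-a1 from chr11:32183707-32183766, on the plus strand.
Hba-x: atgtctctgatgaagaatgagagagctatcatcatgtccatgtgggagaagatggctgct
Hba-a1: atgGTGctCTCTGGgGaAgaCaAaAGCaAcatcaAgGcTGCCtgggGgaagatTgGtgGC
The adult gene Hba-a2 has the same 60 bases as Hba-a1.

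In these stretches Hbb-bh1 differs from Hbb-y at 21 bases, Hbb-b1 differs from Hbb-y at 19 and Hba-a1 differs from Hba-x at 28. Over the whole coding sequence, Hbb-y was identical to Hbb-bh1 at 76.4% of 444 bases and to Hbb-b1 at 74.3%, and Hba-x was identical to Hba-a1 at 62.0% of 429 bases. The adult genes are near copies of each other, with 1 base different between Hbb-b1 and Hbb-b2 and 1 between Hba-a1 and Hba-a2. Every 50-base window of the Hbb-y, Hbb-bh1 and Hba-x transcripts was found in no other gene's transcript (100% of 612, 565 and 752 windows). Only 47.7% of the windows of Hbb-b1, 41.7% of Hbb-b2, 32.5% of Hba-a1 and 13.1% of Hba-a2 were so. The embryonic globin counts are therefore not shared with another globin gene at this read length, whereas the adult globin counts could be.

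The adult globins were nearly absent from the counts. Hba-a1, Hba-a2 and Hbb-b2 had 0 reads in each of the 8 libraries, as did the beta-like gene Hbb-bh2, and Hbb-b1 had 1 read over all libraries. Adult globin mRNA was thus not measured by these counts, although part of each adult transcript is unique, and the reason was not tested. The theta-like globins, of which Hbq1a and Hbq1b also share sequence, were at 0.0357 to 0.318 CPM and 0.143 to 0.717 CPM per library. The embryonic globins therefore made up nearly all the counted hemoglobin signal of these libraries, and the balance of embryonic to adult globin could not be given.

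Hbb-y, the embryonic εy chain, had the highest mean CPM of the 8 genes in ErbB4+/+, and Alas2 had the highest in ErbB4-/-. It lies on chromosome 7 (111000259 to 111001754, minus strand). In ErbB4+/+ replicates 1 to 4, 971, 986, 1008 and 489 reads gave Hbb-y levels of 34.6, 31.6, 26.3 and 13.9 CPM. The 182, 141, 263 and 577 reads of ErbB4-/- replicates 1 to 4 gave 3.69, 4.05, 6.73 and 18.3 CPM. ErbB4+/+ replicates 1 to 3 were the highest libraries and ErbB4-/- replicates 1 to 3 the lowest, and the genotypes overlapped because ErbB4-/- replicate 4 was above ErbB4+/+ replicate 4. ErbB4+/+ averaged 26.6 ± 9.14 CPM and ErbB4-/- averaged 8.20 ± 6.88 CPM (each SD, n = 4), and edgeR's fitted log2 fold change of ErbB4-/- over ErbB4+/+ was -1.72 (SE 0.45). Among the 14696 genes tested, this fitted value ranked 2 from the lowest, after Xist (-8.34). This rank, like that of Hba-x below, is a description only, since the genes were chosen by this contrast. The highest library had 9.37 times the level of the lowest.

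Hba-x, the embryonic alpha-like ζ chain, is on another chromosome and followed the same order of libraries closely. It lies on chromosome 11 (32176400 to 32178116, plus strand). Its levels were 6.95, 6.29, 6.83 and 4.87 CPM in ErbB4+/+ replicates 1 to 4 (195, 196, 262 and 171 reads) and 1.60, 1.67, 2.48 and 5.08 CPM in ErbB4-/- replicates 1 to 4 (79, 58, 97 and 160 reads). As for Hbb-y, the groups overlapped only because ErbB4-/- replicate 4 was above ErbB4+/+ replicate 4. ErbB4+/+ averaged 6.23 ± 0.95 CPM and ErbB4-/- averaged 2.71 ± 1.63 CPM (each SD, n = 4), with a fitted log2 fold change of -1.23 (SE 0.31) that ranked 8 from the lowest. The highest library had 4.34 times the level of the lowest, a narrower range than that of Hbb-y.

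Hbb-bh1, the βh1 chain of the earliest primitive red cells, was near the limit of detection. It lies on chromosome 7 (110990150 to 110991678, minus strand), beside Hbb-y. Only 13, 9, 10 and 4 reads were counted in ErbB4+/+ replicates 1 to 4, or 0.464, 0.289, 0.261 and 0.114 CPM. The counts of ErbB4-/- replicates 1 to 4 were 7, 4, 5 and 10 reads, or 0.142, 0.115, 0.128 and 0.318 CPM. The highest ErbB4-/- library was again replicate 4 and the lowest ErbB4+/+ library was again replicate 4. Its counts did not pass the filter on low counts, and its totals of 36 and 26 reads gave a ratio of ErbB4-/- to ErbB4+/+ per counted read of 0.62 (95% interval 0.36 to 1.06). Intervals of this kind cover counting error only, and this one includes a ratio of 1. In the libraries with the Y-linked pattern only, the fitted log2 fold change was above 0, at 0.57 (SE 0.93).

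**Figure D1:**
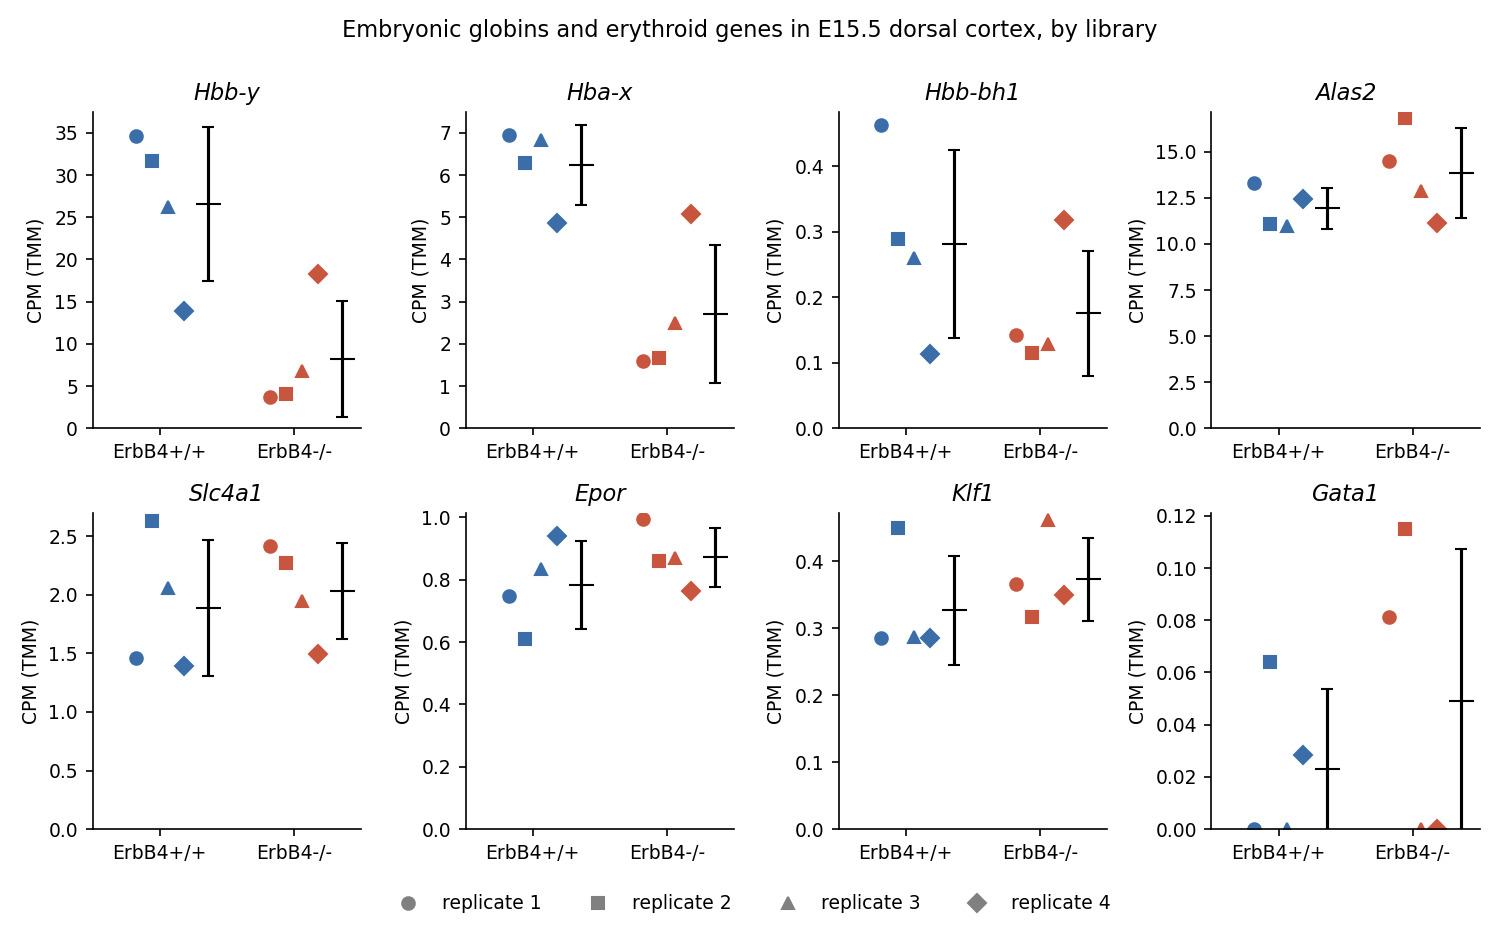
Level of each of the 8 genes in each library, in TMM-normalized CPM on a linear scale from 0, with ErbB4+/+ in blue, ErbB4-/- in red, 1 symbol per replicate number and bars for the mean ± SD (n = 4, cut at 0 for Gata1). Hbb-y, Hba-x and Hbb-bh1 are low in ErbB4-/- replicates 1 to 3 and higher in ErbB4-/- replicate 4 (18.3 CPM of Hbb-y), while Alas2 lies between 11.0 and 16.9 CPM in all libraries.

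Alas2, the erythroid form of the first enzyme of heme synthesis, did not follow the embryonic globins. It lies on chromosome X (146981918 to 147005181, plus strand). ErbB4+/+ replicates 1 to 4 held 13.3, 11.1, 11.0 and 12.4 CPM (373, 346, 421 and 436 reads), and ErbB4-/- replicates 1 to 4 held 14.5, 16.9, 12.9 and 11.1 CPM (715, 587, 502 and 351 reads). The highest libraries were ErbB4-/- replicates 1 and 2, which were the lowest for Hbb-y. The groups overlapped, averaging 11.9 ± 1.12 CPM and 13.8 ± 2.43 CPM (each SD, n = 4), with a fitted log2 fold change of 0.21 (SE 0.13).

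Slc4a1, which encodes band 3, the chloride and bicarbonate exchanger of the red cell membrane, lies on chromosome 11 (102210138 to 102227517, minus strand). ErbB4+/+ replicates 1 to 4 held 1.46, 2.63, 2.06 and 1.40 CPM (41, 82, 79 and 49 reads), and ErbB4-/- replicates 1 to 4 held 2.42, 2.27, 1.95 and 1.49 CPM (119, 79, 76 and 47 reads). The ranges of the genotypes lay almost on top of each other, and the fitted log2 fold change was 0.11 (SE 0.23), smaller than its error. Without ErbB4+/+ replicate 4 it was -0.01 (SE 0.24).

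Epor, the receptor through which erythropoietin keeps erythroid progenitors alive, lies on chromosome 9 (21763343 to 21768020, minus strand). Levels were 0.749, 0.609, 0.834 and 0.940 CPM in ErbB4+/+ replicates 1 to 4 and 0.994, 0.861, 0.871 and 0.762 CPM in ErbB4-/- replicates 1 to 4, from 19 to 49 reads per library. The groups overlapped, and the fitted log2 fold change was 0.16 (SE 0.22). With Xist as a covariate it was -0.11 (SE 0.34), and in the libraries with the Y-linked pattern only it was -0.10 (SE 0.37). Neural cells can also express Epor, so its level is not a measure of red cells alone.

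Klf1, the zinc finger factor that binds CACCC boxes in adult beta-globin and other erythroid promoters, lies on chromosome 8 (87425827 to 87429194, plus strand). Levels were 0.285, 0.449, 0.287 and 0.285 CPM in ErbB4+/+ replicates 1 to 4 and 0.365, 0.316, 0.461 and 0.349 CPM in ErbB4-/- replicates 1 to 4, from 8 to 18 reads per library. The groups overlapped, and the fitted log2 fold change was 0.20 (SE 0.30). Gata1, the master GATA factor of the red cell lineage on chromosome X (7536386 to 7555197, minus strand), had 0, 2, 0 and 1 reads in ErbB4+/+ replicates 1 to 4 and 4, 4, 0 and 0 reads in ErbB4-/- replicates 1 to 4. A count of 0 allows a level of up to 0.107 CPM in ErbB4+/+ replicate 1 and 0.0768 to 0.0953 CPM in the other libraries without a read (3 reads, counting error only). The totals of 3 and 8 reads gave a ratio of 2.29 (95% interval 0.55 to 13.4), so no difference of Gata1 was detectable at this depth.

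In all, 6 of the 8 genes passed the filter on low counts, and Hbb-bh1 and Gata1 did not. Of these 6, the fitted log2 fold change was below 0 for 2 (50.8% of all genes tested) and below -1 for the same 2, Hbb-y and Hba-x (0.122% of all genes tested). The genotypes did not overlap for 0 of the 8 genes, while 1.48% of all genes tested lay wholly lower in ErbB4-/- and 1.86% wholly higher. These shares are given as background only, since the genes were chosen by this contrast. The fitted log2 fold changes of all genes tested had a median of -0.00 and ran from -0.23 at the 5th percentile to 0.31 at the 95th, so the values of Alas2, Slc4a1, Epor and Klf1 were within the range of the bulk of genes and those of Hbb-y and Hba-x were outside it.

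Per kilobase of transcript, the order of mean levels in ErbB4+/+ was Hbb-y (40.3 CPM per kb), Hba-x (7.78), Alas2 (5.86), Hbb-bh1 (0.459), Epor (0.428), Slc4a1 (0.415) and Klf1 (0.213). In ErbB4-/- the order was Hbb-y (12.4 CPM per kb), Alas2 (6.80), Hba-x (3.38), Epor (0.477), Slc4a1 (0.447), Hbb-bh1 (0.286) and Klf1 (0.243). Hba-x and Alas2, neighbours in both orders, overlapped between libraries in each genotype (6.08 to 8.68 against 5.39 to 6.53 CPM per kb in ErbB4+/+, and 2.00 to 6.34 against 5.47 to 8.27 in ErbB4-/-). Hbb-bh1, Epor and Slc4a1 were also not separated beyond their spread in either genotype. Hbb-y and Alas2 overlapped in ErbB4-/- (5.59 to 27.7 against 5.47 to 8.27 CPM per kb) and not in ErbB4+/+ (21.1 to 52.4 against 5.39 to 6.53).

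One library of each genotype lay between the rest. ErbB4+/+ replicate 4 had the lowest embryonic globin of its group, with 18.9 CPM of the 3 embryonic globins together, scaled by library totals alone, against 33.4 to 41.8 in replicates 1 to 3. ErbB4-/- replicate 4 had the highest of its group, with 23.7 against 5.48 to 9.31 in replicates 1 to 3. Without ErbB4-/- replicate 4 the fitted log2 fold change was -2.47 (SE 0.32) for Hbb-y and -1.71 (SE 0.20) for Hba-x. The ranges of these genes then no longer overlapped between the genotypes, and the same holds without ErbB4+/+ replicate 4. Neither is a finding, since the overlap lay between these libraries alone and leaving out either removes it. Leaving out any other single library gave -1.93 to -1.46 for Hbb-y and -1.33 to -1.03 for Hba-x.

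The sex pattern of the libraries moved with the embryonic globins. The 3 libraries with high Xist had 26.3 to 34.6 CPM of Hbb-y, and the 5 with the Y-linked pattern had 3.69 to 18.3 CPM. Within the 5 libraries of the Y-linked pattern, the only ErbB4+/+ library had 13.9 CPM of Hbb-y and 4.87 CPM of Hba-x, both inside the range of the 4 ErbB4-/- libraries (3.69 to 18.3 CPM and 1.60 to 5.08 CPM). The fitted log2 fold change within these 5 libraries was -0.79 (SE 0.71) for Hbb-y and -0.87 (SE 0.54) for Hba-x. The lone ErbB4+/+ library is assumed in this fit to vary like the others. Hbb-bh1 turned to 0.57 (SE 0.93), smaller than its error, with 4 reads in that ErbB4+/+ library. With Xist as a covariate in all 8 libraries the values were -0.77 (SE 0.63) for Hbb-y and -0.84 (SE 0.48) for Hba-x. Epor changed sign in these fits, to -0.10 (SE 0.37) within the 5 libraries and -0.11 (SE 0.34) with the covariate, and Slc4a1 moved to 0.55 (SE 0.34) and 0.57 (SE 0.38). Alas2 and Klf1 stayed above 0 in both. The part of the sex pattern in the difference was not tested beyond these values.

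**Figure D2:**
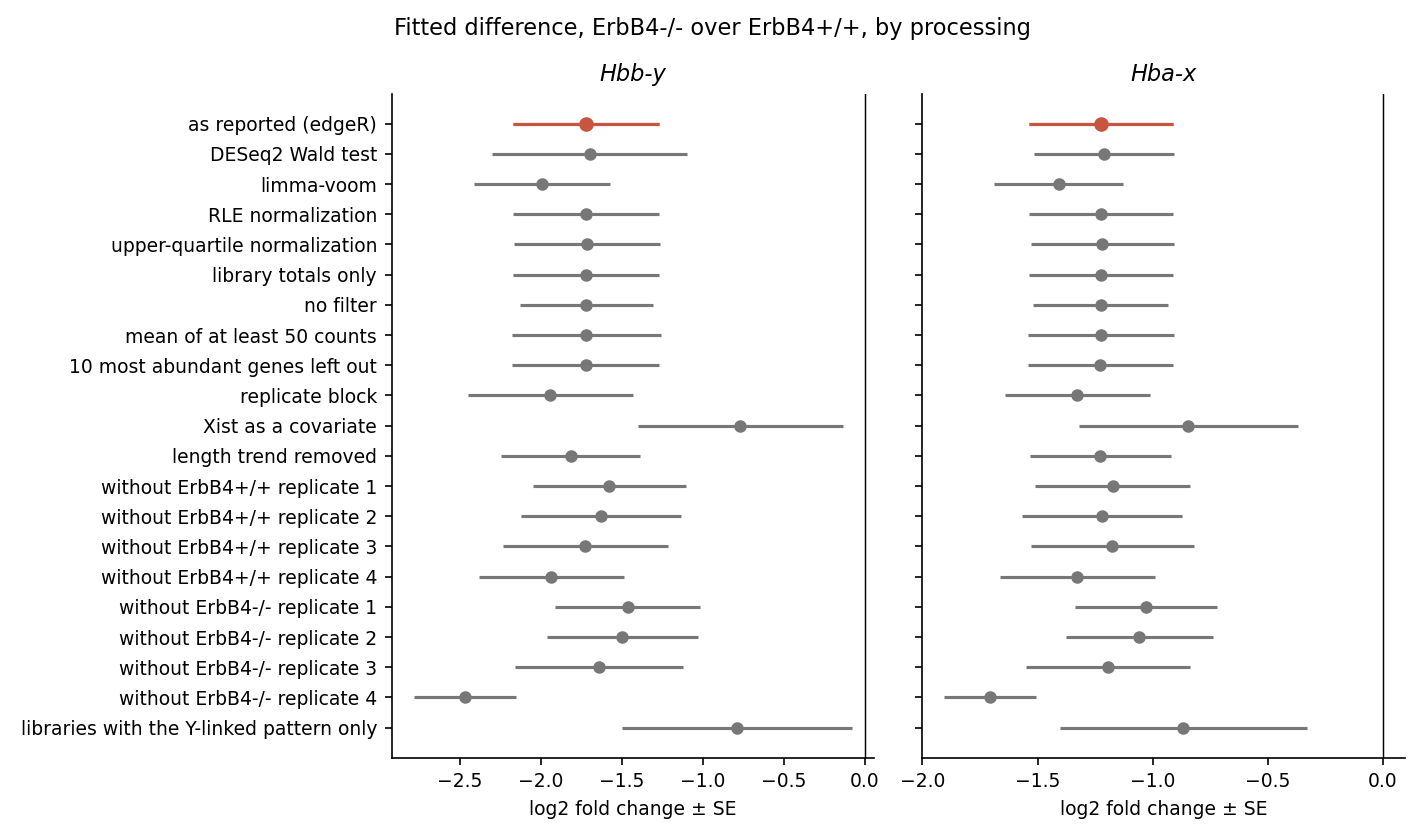
Fitted log2 fold change of ErbB4-/- over ErbB4+/+ (horizontal axis, points with SE bars) for Hbb-y and Hba-x under each way of processing the counts, with the reported fit in red and a vertical line at 0. All points lie below 0, and they lie nearest to 0 with Xist as a covariate (-0.77 for Hbb-y, -0.84 for Hba-x) and in the libraries with the Y-linked pattern only (-0.79 and -0.87).

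Hbb-y and Hba-x varied together from library to library. Across the 8 libraries, the log2 CPM of Hbb-y and Hba-x had a Pearson's r of 0.99 and a Spearman's rho of 0.98, and after centring on each genotype r was 0.97. Hbb-y and Hbb-bh1 had r = 0.82, with Hbb-bh1 resting on 4 to 13 reads. Alas2 ran the other way, with r = -0.77 to Hbb-y (Spearman's rho = -0.60, r = -0.92 without ErbB4+/+ replicate 1, -0.71 within genotypes) and r = -0.80 to Hba-x. Epor had r = -0.72 to Hbb-y, Slc4a1 had -0.34 and Klf1 had -0.20. These correlations are given as descriptions, over 8 libraries that share the normalization and the genotypes. The number of reads counted per library also ran against the embryonic globins (r = -0.70 between total counts and the mean standardised log2 CPM of Hbb-y and Hba-x), and its part was not tested.

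**Figure D3:**
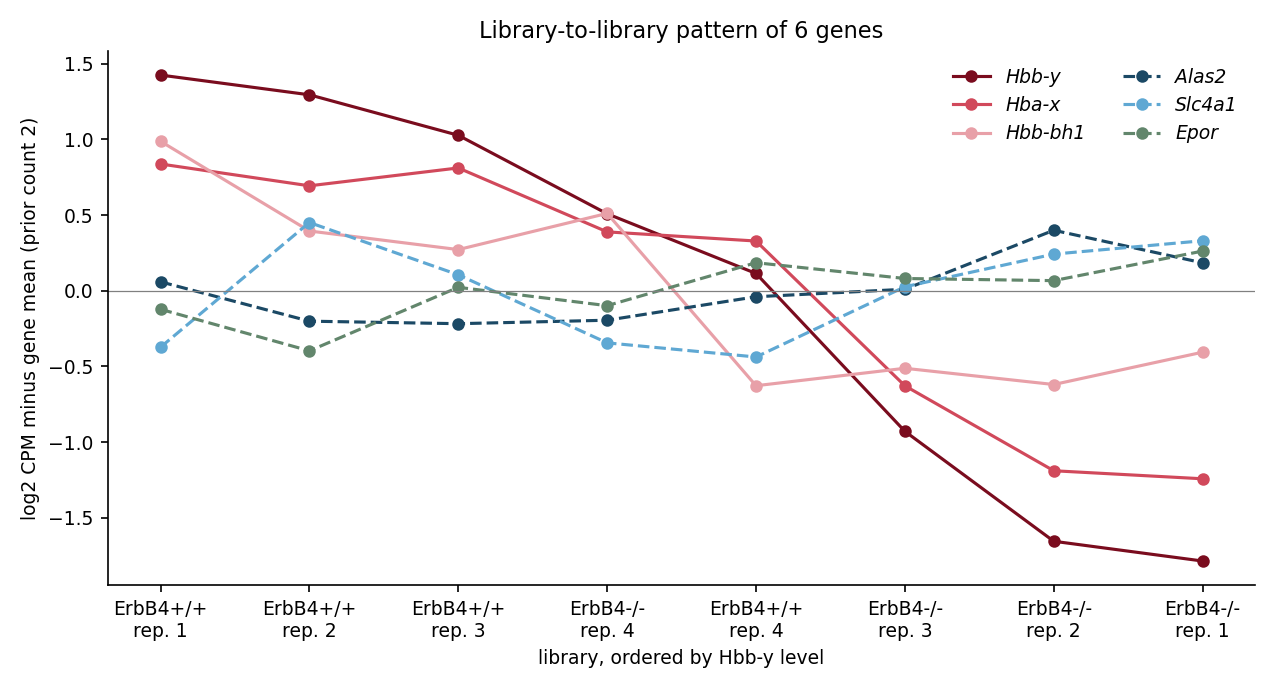
Deviation of log2 CPM (prior count 2) from each gene's mean over the 8 libraries (vertical axis), with the libraries ordered by Hbb-y level (horizontal axis) and lines joining the values of 1 gene only to guide the eye. Hbb-y and Hba-x descend together across the order (r = 0.99), and Alas2 lies highest in the 2 libraries with the least Hbb-y, ErbB4-/- replicates 1 and 2.

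The embryonic beta-like and alpha-like chains were not in the same proportion in all libraries. There were 4.98, 5.03, 3.85 and 2.86 Hbb-y reads per Hba-x read in ErbB4+/+ replicates 1 to 4 and 2.30, 2.43, 2.71 and 3.61 in ErbB4-/- replicates 1 to 4. ErbB4+/+ averaged 4.18 ± 1.04 and ErbB4-/- 2.76 ± 0.59 (each SD, n = 4), and the groups overlapped because both libraries numbered 4 lay between the rest. Per kilobase of transcript, the means were 5.06 and 3.35. The ratio, which shares Hbb-y with the order of libraries, was higher in the libraries with more Hbb-y except between ErbB4+/+ replicates 1 and 2, with counting intervals of 4.27 to 5.84 in ErbB4+/+ replicate 1 and 1.76 to 3.04 in ErbB4-/- replicate 1.

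**Figure D4:**
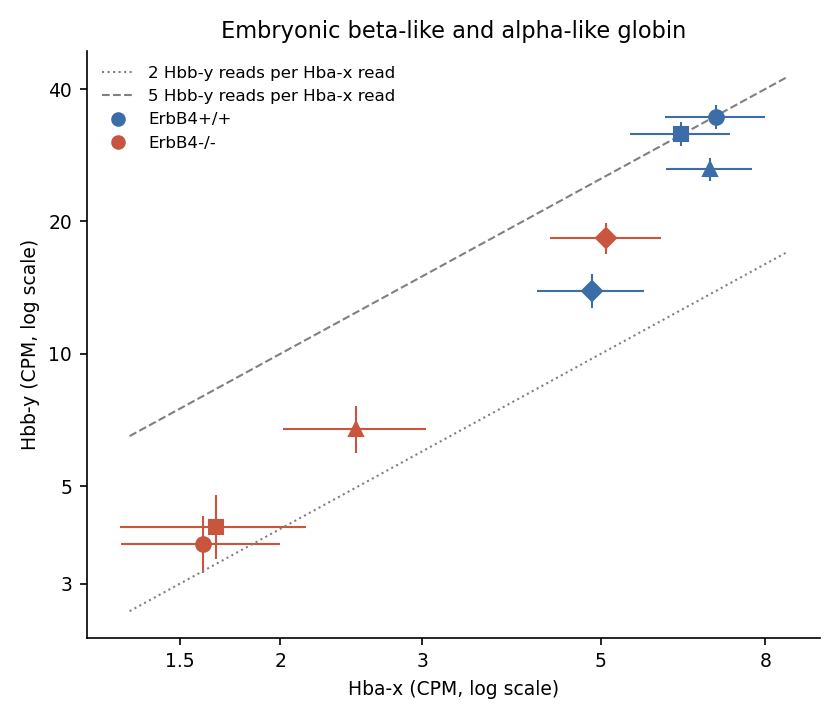
Hbb-y level against Hba-x level in each library, in CPM on log scales, with ErbB4+/+ in blue, ErbB4-/- in red, 95% Poisson counting intervals as bars and lines of 2 and 5 Hbb-y reads per Hba-x read. Circles, squares, triangles and diamonds are replicates 1 to 4, and the 2 diamonds of ErbB4+/+ and ErbB4-/- lie next to each other in the middle of the range.

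Within the beta-like embryonic reads, Hbb-bh1 made up 1.32%, 0.905%, 0.982% and 0.811% in ErbB4+/+ replicates 1 to 4 and 3.70%, 2.76%, 1.87% and 1.70% in ErbB4-/- replicates 1 to 4. The 4 ErbB4-/- shares were above the 4 ErbB4+/+ shares, but each rests on 4 to 13 Hbb-bh1 reads. The exact binomial 95% intervals ran from 0.705 to 2.25% in ErbB4+/+ replicate 1 and from 0.82 to 3.11% in ErbB4-/- replicate 4, so single libraries of the 2 genotypes were not separated by counting error. There were 0.351 to 0.892 Alas2 reads per Hbb-y read in ErbB4+/+ and 0.608 to 4.16 in ErbB4-/-, with ErbB4-/- replicate 4 lowest in its group and inside the ErbB4+/+ range.

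The promoters of the erythroid genes were examined for 4 short motifs, since the embryonic globins varied together and Alas2 ran against them. The motifs were GATAA (part of the GATA factor site), CACCC (the KLF box), CCAAT (the CCAAT box) and TATAAA (the TATA box), each searched on both strands in the 250 bases before the start in RefSeq (GRCm38.p6). None of the 4 contains another. The 120 bases before the start are shown for Hbb-y, Hba-x and Alas2, with motif matches in capitals, from chr7:103853208-103853327 (minus strand), chr11:32276480-32276599 (plus strand) and chrX:150547297-150547416 (plus strand).
Hbb-y: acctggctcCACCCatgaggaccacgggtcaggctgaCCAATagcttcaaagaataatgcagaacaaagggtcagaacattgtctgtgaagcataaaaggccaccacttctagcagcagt
Hba-x: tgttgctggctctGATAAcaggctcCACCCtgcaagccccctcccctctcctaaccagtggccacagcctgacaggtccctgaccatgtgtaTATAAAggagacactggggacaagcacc
Alas2: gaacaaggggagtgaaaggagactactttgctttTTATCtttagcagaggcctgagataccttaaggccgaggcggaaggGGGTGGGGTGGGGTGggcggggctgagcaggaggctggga

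Of the 8 genes, 6 matched a promoter entry, and Hbb-bh1 and Slc4a1 did not. CACCC was found in 6 of the 6 promoters and in 51.3% of the 27025 promoters of the table. GATAA was found in 5 of the 6, all but Gata1, and in 23.0% of all promoters. CCAAT was found in Hbb-y and Klf1 and in 34.5% of all promoters, and TATAAA was found in Hba-x and Alas2 and in 13.0%. Hbb-y and Hba-x, the genes that varied together, each had CACCC and GATAA, as did Alas2 and Epor, whose levels ran against theirs, and Klf1. A match is a stretch of letters and was not measured as a binding site.

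The remaining genes of the red cell program were counted from lists of heme synthesis and iron genes, membrane and skeleton genes, erythroid transcription factors, erythropoietin signalling genes, red cell enzymes and further globins. In all, 73 of the 90 genes found in the files were tested, and 0 passed an adjusted p of 0.05 in edgeR's quasi-likelihood test (0.0272% of all genes tested passed). DESeq2 and limma-voom also called 0 of them. At an unadjusted p of 0.05, 2 were lower (2.52% of all genes tested) and 0 were higher (3% of all genes tested). The fitted log2 fold change was below 0 for 40 and above 0 for 33, with a median of -0.01 against -0.00 over all genes tested.

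Among the heme synthesis and iron genes, 21 of 21 were tested, 15 had fitted values below 0 and 6 above, and the median was -0.04. Summed over the list, their levels did not overlap, with 659 to 695 CPM in ErbB4+/+ and 634 to 656 CPM in ErbB4-/-, a gap narrower than the spread within either genotype. The sums of all the other lists overlapped. Alad, the enzyme that forms the first pyrrole of heme, was one of the 2 genes with an unadjusted p under 0.05, and it is named here after its values were seen. It had 28.7 to 33.1 CPM in ErbB4+/+ and 25.5 to 26.7 CPM in ErbB4-/-, with no overlap and a fitted value of -0.20 (SE 0.07) at an adjusted p of 0.81 in edgeR. Fech, which inserts iron into protoporphyrin to form heme, lay the other way without overlap (30.1 to 34.0 CPM against 34.4 to 36.4 CPM, log2 fold change 0.11, adjusted p = 0.81 in edgeR) and was also named after its values were seen. Tfrc, the transferrin receptor that takes up iron, was at -0.00 (SE 0.10), and the mitochondrial carrier Slc25a39 was at -0.15 (SE 0.09). The largest fitted value of the list was that of Blvrb, a biliverdin reductase, at -0.26 (SE 0.15). Blvrb was at 5.88 CPM in ErbB4+/+ replicate 1, against 3.99 to 4.41 CPM in the rest of ErbB4+/+ and 3.40 to 4.26 CPM in ErbB4-/-. These genes serve many cell types, so their levels in cortex are not those of red cells alone.

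Among the membrane and skeleton genes, 14 of 19 were tested, 3 had fitted values below 0 and 11 above, and the median was 0.10. This median was 0.040 without ErbB4+/+ replicate 1, 0.0039 with Xist as a covariate and -0.0045 in the libraries with the Y-linked pattern only. The cytoskeletal genes Epb4.1, Add1 and Add2 had log2 fold changes of -0.00 (SE 0.07), 0.02 (SE 0.04) and 0.11 (SE 0.09), at levels that cortical cells also reach. Add2 was at 180 CPM in ErbB4+/+ replicate 1, against 231 to 244 CPM in the rest of ErbB4+/+ and 229 to 252 CPM in ErbB4-/-. Tmod1, which caps actin filaments, had the largest value of the list, 0.67 (SE 0.61), from 0 to 0.546 CPM per library. Rhag, Kel, Rhd and Epb4.2, red cell membrane proteins with narrow expression, were below 0.285 CPM in every library and did not pass the filter.

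Among the erythroid transcription factors, 18 of 22 were tested, 9 had fitted values below 0 and 9 above, and the median was -0.01. Tal1, which builds a complex with GATA1 in red cell precursors and is also made in endothelium and in neurons, was the other gene with an unadjusted p under 0.05. It had 2.06 to 2.57 CPM in ErbB4+/+ and 1.61 to 1.91 CPM in ErbB4-/-, with no overlap and a fitted value of -0.37 (SE 0.15) at an adjusted p of 0.81 in edgeR. Bcl11a, which represses embryonic globin genes in red cells and is abundant in cortical neurons, had 453 to 492 CPM in ErbB4+/+ and 436 to 474 CPM in ErbB4-/-, with a log2 fold change of -0.03 (SE 0.05). Ldb1 had -0.10 (SE 0.06) and Nr2c2, part of another globin repressor complex, had 0.17 (SE 0.14). Nr2c2 was at 84.9 CPM in ErbB4+/+ replicate 1, against 139 to 150 CPM in the rest of ErbB4+/+ and 135 to 152 CPM in ErbB4-/-.

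Among the erythropoietin signalling genes, 12 of 13 were tested, 7 had fitted values below 0 and 5 above, and the median was -0.02. Epo itself had reads in 2 libraries only, at 0.225 and 0.0406 CPM, and was not tested. The fitted value was 0.09 (SE 0.06) for Jak2, the kinase bound to the receptor, while Socs2 had 0.10 (SE 0.06), Bcl2l1 had -0.09 (SE 0.06) and Sh2b3, an inhibitor of the pathway, had 0.15 (SE 0.11). Among the red cell enzymes, 7 of 8 were tested, with 6 fitted values below 0, 1 above and a median of -0.02, and Car1 had no read in any library. Prdx2, an abundant peroxidase, had -0.16 (SE 0.09), and Gpx1, which removes peroxides, had -0.17 (SE 0.09). For both, ErbB4+/+ replicate 1 lay above all other libraries. It had 882 CPM of Prdx2, against 616 to 680 CPM in the rest of ErbB4+/+ and 610 to 665 CPM in ErbB4-/-. For Gpx1 it had 107 CPM, against 78.4 to 82.1 CPM and 73.3 to 81.0 CPM. Cat had -0.02 (SE 0.05) and the mitophagy receptor Bnip3l had -0.01 (SE 0.06). Hbq1b was the only further globin that was tested, with a log2 fold change of 0.13 (SE 0.48). The globins of other cells, Ngb in neurons and Cygb in fibroblast-like cells, had 0.07 (SE 0.30) and -0.23 (SE 0.13).

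**Figure D5:**
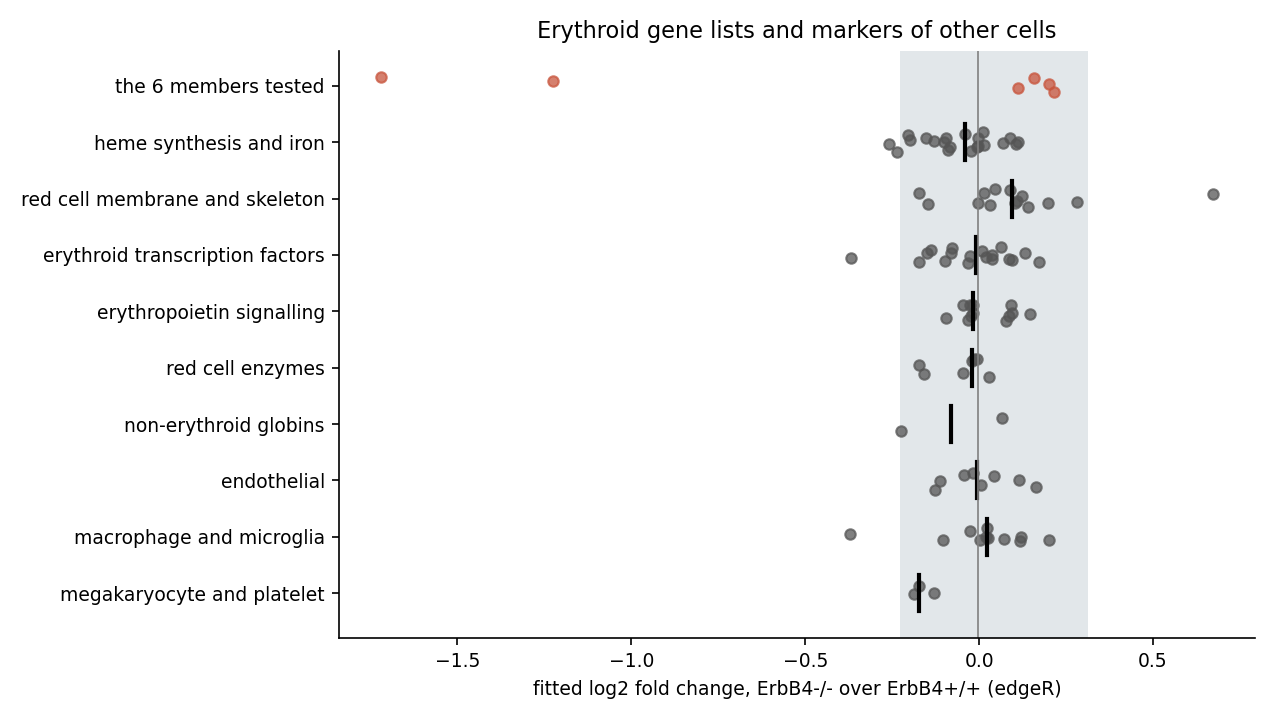
Fitted log2 fold change of ErbB4-/- over ErbB4+/+ (horizontal axis) for each tested gene of the 6 tested erythroid genes described, of the gene lists other than the further globins and of 3 lists of markers of other blood or vessel cells, with black bars for the list medians and shading from the 5th to the 95th percentile of all genes tested. Hbb-y (-1.72) and Hba-x (-1.23) stand apart to the left, and the medians of the lists drawn lie between -0.17 and 0.10.

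Markers of the other cells that carry or surround blood were summed in each library. Endothelial markers (8 of 8 tested) summed to 161 to 165 CPM in ErbB4+/+ and 158 to 167 CPM in ErbB4-/-, and the median of their fitted log2 fold changes was -0.01. Macrophage and microglia markers (11 of 11 tested) summed to 63.9 to 77.3 CPM and 66.1 to 75.7 CPM, with a median of 0.02. Megakaryocyte and platelet markers (3 of 9 tested) summed to 17.1 to 23.9 CPM and 16.6 to 19.1 CPM, with a median of -0.17. Pericyte markers (5 of 5 tested) summed to 72.1 to 95.1 CPM and 79.6 to 100 CPM, with 4 fitted above 0 and a median of 0.16. Of these, Pdgfrb lay higher in ErbB4-/- without overlap (log2 fold change 0.18, adjusted p = 0.81 in edgeR) and is named after its values were seen. Meningeal fibroblast markers (6 of 9 tested) summed to 14.3 to 16.5 CPM and 14.0 to 22.3 CPM, with a median of 0.04. The part of these cells in the difference of the embryonic globins was not tested. Of the markers in these 5 lists, edgeR called 0 at an adjusted p of 0.05 and 0 at an unadjusted p of 0.05. No defining marker of these lists was without a read in all libraries, although Pf4 of platelets was at 0.057 to 0.23 CPM. Across the 8 libraries, the summed endothelial markers had r = -0.04 to the mean standardised level of Hbb-y and Hba-x, megakaryocyte markers 0.37, macrophage markers -0.44 and dorsal cortex markers 0.33.

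Genes with a library pattern like that of the embryonic globins were ranked by Pearson's r, across the 8 libraries, to the mean standardised log2 CPM of Hbb-y and Hba-x. Of 14690 genes ranked, 38 had r over 0.9 and 55 had r under -0.9. The 10 most alike were Spsb4 (r = 0.99), E2f6 (0.97), A430105I19Rik (0.96), Hmga2 (0.96), Ppp1r17 (0.96), Ino80c (0.95), Ccdc22 (0.95), Ccnf (0.95), Esam (0.95) and Caskin2 (0.95). Hmga2, a chromatin protein of embryonic progenitors, had 12.4, 8.92, 12.5 and 9.29 CPM in ErbB4+/+ replicates 1 to 4 and 4.87, 5.37, 6.27 and 9.43 CPM in ErbB4-/- replicates 1 to 4. ErbB4-/- replicate 4 was again the highest of its group, as the choice of genes by this correlation makes likely. Spsb4 ran from 22.3 to 24.4 CPM in ErbB4+/+ and was at 18.1, 18.1, 18.5 and 22.5 CPM in ErbB4-/-, a range far narrower than that of the globins. The order depends on the measure, since 1 of the 10 was also among the 10 highest by Spearman's rho and 4 of the 10 were so without ErbB4+/+ replicate 1. None of the 10 passed edgeR's test between the genotypes after adjustment.

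The 10 genes with the most opposite pattern, named after their values were seen, included Crym (r = -0.97), which encodes a thyroid hormone binding protein, and Gfap (r = -0.95), the intermediate filament of astrocytes. Crym had 21.4, 21.9, 20.5 and 26.0 CPM in ErbB4+/+ replicates 1 to 4 and 39.4, 34.0, 35.8 and 25.7 CPM in ErbB4-/- replicates 1 to 4. Gfap had 0.571, 0.93, 0.651 and 0.797 CPM and 1.89, 2.07, 1.23 and 0.857 CPM. In both genes ErbB4-/- replicate 4 was the lowest of its group, where for Hbb-y and Hba-x it was the highest, and its place follows from choosing genes by this correlation. After adjustment, edgeR called none of these 10. The paper, using DESeq2, lists Crym among the genes altered by loss of ErbB4. By qRT-PCR it also reports altered Crym and raised Gfap mRNA in ErbB4-/- cortex at E15.5.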

How the data were processed

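RNA-seq libraries from dorsal cortex of E15.5 embryos were analysed, 4 labelled ErbB4+/+ and 4 labelled ErbB4-/-. The authors prepared polyA-selected libraries that are not strand-specific, aligned the single-end reads with HISAT (mm9) and tallied reads per gene by HTSeq-count. The gene annotation, counting mode and tool versions are not given in the sources used here, and without strand, overlapping and antisense genes cannot be told apart. The deposited files hold raw counts per gene symbol. The deposited DESeq2 table holds the authors' own comparison (fold changes and p-values) and was not used.

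Counts were normalized by TMM in edgeR 4.0.16 (R 4.3.3) and filtered with filterByExpr (minimum count 10, minimum total 15). The 14696 genes kept were tested by quasi-likelihood, with p-values adjusted by Benjamini-Hochberg and a threshold of 0.05. CPM are TMM-scaled. Log2 values carry a prior count of 2. Nothing states that replicates come from separate litters, so errors measure only the spread between these samples. The samples' numbers did not pair them and were not used in the reported fit. Positions and transcript lengths came from the GENCODE annotation of NCBIM37 and promoters from RefSeq (GRCm38.p6). Genes named are the 8 genes; in each list those past the threshold, the 3 with the highest mean CPM and the largest fold change; the 10 most like the embryonic globins; and checks of labels and cell types. Genes outside this rule are named after their values were seen. Some genes within it are not reported here. The genes and lists were chosen with earlier results of these data known. Alternatives were DESeq2 1.42.0, limma-voom (limma 3.58.1), other normalizations, filters and thresholds, a replicate block, Xist as a covariate, a length correction, the Y-linked libraries alone and each library left out. The window comparison of globin transcripts and the most opposite genes were added after seeing the data. On simulated counts with 200 genes changed 2-fold, edgeR recovered 197 (98.5%) with 18 false calls among 14709 genes, and called 1 with no gene changed. The changed genes were drawn only from genes with a mean above 50 counts. The share recovered therefore does not cover scarcer genes such as Epor, Klf1, Hbb-bh1 and Gata1 (means of 30.3, 12.6, 7.75 and 1.38 counts).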

Additional observations from a re-analysis of the deposited data

Results flagged for a closer look

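In groups of 4 libraries, 42 sets of values were examined for a library far from the other 3 (Dixon's test at the 95% level), and 5 were so. Chance gives about 1 in 20. Hbb-bh1 was at 0.318 CPM in ErbB4-/- replicate 4, against 0.115 to 0.142 CPM in the other ErbB4-/- libraries, from 10 reads against 4 to 7. Klf1 was at 0.449 CPM in ErbB4+/+ replicate 2, against 0.285 to 0.287 CPM, from 14 reads against 8 to 11. Summed pericyte markers were at 72.1 CPM in ErbB4+/+ replicate 1, against 92.8 to 95.1 CPM. Summed choroid plexus markers were at 590 CPM in ErbB4-/- replicate 3, against 2.76 to 11.8 CPM in the other ErbB4-/- libraries. Ddx3y was at 76.4 CPM in ErbB4+/+ replicate 4, against 0.257 to 0.495 CPM in the other ErbB4+/+ libraries. Hbb-y and Hba-x in ErbB4-/- replicate 4 were high but did not pass this test.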

How the results depend on the processing

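The fitted log2 fold changes of Hbb-y and Hba-x stayed below 0 in all 20 alternatives run for each. For Hbb-y it was -0.77 with Xist as a covariate and -0.79 in the libraries with the Y-linked pattern only, and for both genes it was nearest to 0 in these. Leaving out 1 library gave -2.47 to -1.46 for Hbb-y and -1.71 to -1.03 for Hba-x. The replicate block gave -1.94 for Hbb-y and -1.33 for Hba-x. Same-numbered libraries deviated together with correlations of 0.0837, 0.135, 0.0476 and 0.0236, so the numbers were not taken as pairs.

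The genes past the adjusted threshold numbered 4 in edgeR (Wdfy1, Lancl1, Ndst3 and Pign, none of them erythroid and named after their values were seen). They numbered 23 with DESeq2, 2 with the length trend removed and 1 with RLE or upper-quartile normalization, without the 10 most abundant genes, with the replicate block, Xist as a covariate, the Y-linked libraries only or a threshold of 0.01. Without 1 library they numbered 1 to 13, the highest without ErbB4+/+ replicate 4. The erythroid lists had 0 in every alternative. Leaving out 1 library moved the median log2 fold change of erythropoietin signalling genes between -0.014 and 0.049, and that of choroid plexus markers between -0.23 (without ErbB4-/- replicate 3) and 3.25. The Xist covariate and the Y-linked libraries only gave medians of 0.25 and 0.24 for ganglionic eminence markers, the former gave -0.10 for dorsal cortex markers and the latter 0.0071 for pericyte markers. The cause was not tested. In all, 455 of 487 alternative values moved by less than the spread between libraries or by under 1.5 times. That limit was wide for Hbb-y and Hba-x (SD within genotypes of 0.85 and 0.56 log2 units). Hba-x at -0.84 with Xist as a covariate thus counted as unmoved. The total also includes values with little room to move, such as the 0 calls in the erythroid lists, so it does not measure robustness.

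Depth limits Hbb-bh1 and Gata1 most, with 4 to 13 and 0 to 4 reads per library.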
